A study of Homo sapiens with 22 samples.

Results

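The 9 genes of MHC class I antigen presentation were followed through 22 RNA-seq libraries of the established human neuroblastoma cell lines SK-N-AS and GIMEN. They were chosen by symbol from the 35237 genes of the count table, and all 9 were found: HLA-B and HLA-C (heavy chains), B2M (the light chain), TAP1 and TAP2 (the peptide transporter), TAPBP (tapasin, which loads peptides), PSMB8 and PSMB9 (catalytic subunits of the immunoproteasome) and NLRC5 (a transcriptional coactivator of class I genes). Class I molecules carry short peptides from inside the cell to its surface, where CD8 T cells and natural killer cells read them. Proteasomes cut the peptides, the TAP transporter moves them into the endoplasmic reticulum, and tapasin helps them onto heavy chains paired with B2M. Neuroblastoma, which arises from sympathetic precursors in childhood, is known for low class I on its surface, and interferons, NF-kappaB and NLRC5 are among the known inducers of these genes.

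Untreated SK-N-AS cells were kept in DMEM with 10% fetal bovine serum (n = 4). For S1D4 they received 5 µM PP121, an inhibitor of tyrosine and phosphoinositide kinases, in DMEM with 1% serum for 4 days (n = 4). S1D4 cells then received 5 µM PP121 with 100 nM bufalin, a cardiac glycoside that inhibits the sodium pump, in Neurobasal medium with B27 supplement, either for 4 days, called S2D4 (n = 4), or for 30 days, called S2D30 (n = 4). The labels list no serum in that medium. Untreated GIMEN cells were kept in RPMI with 10% serum (n = 3), and GIMEN D30 cells received 2.5 µM PP121 with 10 nM bufalin in RPMI with 1% serum for 30 days (n = 3), with no stage of PP121 alone. Drugs, serum and medium changed together between groups, so their shares in a difference cannot be told apart. The same holds for line, dose, medium and staging in any comparison of the lines. The labels do not say that replicates were separate cultures, so the p-values measure the spread between libraries, which may be technical.

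Library totals ran from 16456484 to 37506800 counts. Both lines are labelled mesenchymal. In untreated SK-N-AS, however, all 8 adrenergic markers of a fixed list were above 3 counts in at least 1 library. They summed to 1571 to 1763 CPM, read counts scaled to library size. TH, which starts catecholamine synthesis, was among them but near the floor there, at a mean of 0.268 CPM (3 to 13 counts). The 8 mesenchymal markers summed to 1387 to 1905 CPM in untreated SK-N-AS and to 46690 to 48500 CPM in untreated GIMEN. The adrenergic markers summed to 409.7 to 434.6 CPM in untreated GIMEN, where PHOX2A and TH had at most 3 counts in each library. In S1D4, S2D4 and S2D30 the adrenergic markers summed to 1262 to 1497, 566.8 to 860.5 and 178.2 to 226.3 CPM. The mesenchymal markers summed to 1359 to 1568, 2589 to 4820 and 2995 to 3686 CPM in those groups. VIM made up most of the last sum, with a mean of 2862 CPM. In GIMEN D30 the adrenergic sum was 234.1 to 277.3 CPM and the mesenchymal sum 21930 to 24660 CPM. A single S2D4 library, replicate 4, stood apart: its log2 CPM correlated at 0.967 to 0.969 with the other 3, which correlated at 0.990 among themselves. The S1D4 libraries fell into pairs, replicates 1 and 2 against 3 and 4: the chi-square per degree of freedom of their counts was 6.70 and 3.16 within the pairs and 24.1 to 27.4 between them. S2D30 libraries also paired, replicates 1 and 4 against 2 and 3, with 4.04 and 4.23 within the pairs and 11.8 to 25.6 between them. Any pair of untreated SK-N-AS libraries gave 26.1 to 112.5. Leukocytes also express class I genes, and the 12 leukocyte markers on the list summed to 179 to 224 CPM in untreated SK-N-AS and 7.68 to 11.03 CPM in S2D30, with S1D4 (64.3 to 80.2) and S2D4 (30.9 to 54.5) between, and to 29.04 to 35.7 and 8.38 to 10.75 CPM in untreated and D30 GIMEN. PTPRC made up most of the sum in untreated SK-N-AS, with a mean of 177 CPM, and had 0.85 CPM in S2D30. Of the 5 that could be tested in S2D30, 3 were higher and 2 lower than in untreated cells. Among all genes in that comparison, 33.8% were called higher and 36.5% lower. Like PTPRC, CORO1A had a lower mean in S2D30 (0.552 CPM, 15.6 untreated). CD14 (3.09 CPM, 1.34 untreated), CSF1R (1.69, 0.259 untreated) and LAPTM5 (2.365, 0.216 untreated) had higher ones. CD3E was at or under 3 counts in every SK-N-AS library. In bulk RNA, more cells of a type and more RNA per cell cannot be told apart.

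The promoters of the heavy chains, of B2M and of the stretch between TAP1 and PSMB9 are shown because the heavy chains and B2M moved together in the results that follow, while TAP1 and PSMB9, neighbours read in opposite directions, did not. RefSeq (GRCh38.p14) gave promoter windows for 8 of the 9 genes. Each window here covers the 250 bases before the start, and bases that GENCODE v29 places in exons of protein-coding genes were left off. The HLA-B stretch lies at chr6:31357189-31357429 (minus strand), that of HLA-C at chr6:31272131-31272342 (minus strand), that of B2M at chr15:44711317-44711486 (plus strand), and the one before PSMB9 at chr6:32853979-32854147 (plus strand). Capitals mark matches, on either strand, to 6 patterns: GAANNGAAA (interferon type), TTCNNNGAA (GAS type), TGACGC (X2 type), TGACGT (CRE type), CCAAT, and an NF-kappaB pattern.
HLA-B: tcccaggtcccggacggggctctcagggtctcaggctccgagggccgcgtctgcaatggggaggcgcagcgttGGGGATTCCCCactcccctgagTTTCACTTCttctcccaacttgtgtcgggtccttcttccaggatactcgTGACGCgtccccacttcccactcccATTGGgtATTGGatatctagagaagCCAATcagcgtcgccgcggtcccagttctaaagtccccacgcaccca
HLA-C: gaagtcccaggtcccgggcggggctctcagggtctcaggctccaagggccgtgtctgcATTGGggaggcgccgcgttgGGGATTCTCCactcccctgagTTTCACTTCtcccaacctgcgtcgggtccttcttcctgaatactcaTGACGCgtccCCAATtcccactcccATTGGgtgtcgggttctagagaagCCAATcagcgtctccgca
B2M: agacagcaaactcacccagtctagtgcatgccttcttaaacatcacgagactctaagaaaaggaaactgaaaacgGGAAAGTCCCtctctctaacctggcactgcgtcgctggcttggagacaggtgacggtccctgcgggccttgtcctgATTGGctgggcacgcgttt
PSMB9: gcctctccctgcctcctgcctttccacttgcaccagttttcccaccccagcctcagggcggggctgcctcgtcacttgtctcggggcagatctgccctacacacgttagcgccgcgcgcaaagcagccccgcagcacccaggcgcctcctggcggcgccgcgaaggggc
The full HLA-B and HLA-C windows had 226 identical bases in a global alignment of the 250 (90.4%). Both held an interferon-type match (155 and 151 bases before the start), an X2-type match (106 and 105 bases before it), CCAAT matches and an NF-kappaB match upstream of the interferon-type one. B2M held an NF-kappaB match 125 bases before its start and a CCAAT match at 49. TAP2, whose window is not printed, held an interferon-type match at 63 and an X2-type match at 35, TAP1 and TAPBP an NF-kappaB match at 72 and 56, and PSMB8 a CRE-type match at 69. The interferon-type pattern fixes the spacing between GAA and GAAA, and a longer spacing was not searched. The B2M stretch holds such a longer run, gaaactgaaa, left unmarked, and the TAP1 and TAPBP windows hold like runs. The lack of an interferon-type match in these genes therefore does not show that they lack an interferon element. The starts of TAP1 and PSMB9 lie 488 bases apart, and the PSMB9 stretch shown held no match. Their windows overlap by 13 bases, and the CCAAT match at 249 for TAP1 and 243 for PSMB9 is the same site, read on opposite strands. Among 35116 RefSeq promoters of this length, 6.56% held the interferon-type pattern, 6.57% the GAS type, 7.67% the X2 type, 7.1% the CRE type, 32% CCAAT and 9.96% the NF-kappaB pattern. Such matches describe letters and do not show that a factor was bound.

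Most of the 9 genes were higher in both stage 2 groups of SK-N-AS than in untreated cells. A gene was called higher or lower at an adjusted p under 0.05 in edgeR's quasi-likelihood test over all genes tested. S1D4 against untreated cells had 2 of 9 genes higher (TAP1 and TAPBP) and 1 lower (PSMB9), where 17.6% of all genes were called higher and 22.4% lower. S2D4 had 7 higher and 1 lower, against 30.9% and 32.2% of all genes. S2D30 also had 7 higher and 1 lower, against 33.8% and 36.5%. The median log2 fold change of the 9 genes was 0.14, 0.72 and 1.25 in that order, while that of all genes lay between -0.03 and -0.01. In both stage 2 groups the 7 higher genes were HLA-B, HLA-C, B2M, TAP1, TAP2, TAPBP and NLRC5, and the immunoproteasome subunits were not among them. GIMEN D30 had 7 of 7 tested genes higher, where 35.5% of all genes were called higher and 36% lower. These were HLA-C, B2M, TAP1, TAP2, TAPBP, NLRC5 and PSMB9, with a median log2 fold change of 1.04 against 0.02 for all genes. HLA-B and PSMB8 were too low in GIMEN to be tested. The 3 SK-N-AS comparisons share their untreated libraries.

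**Figure D1:**
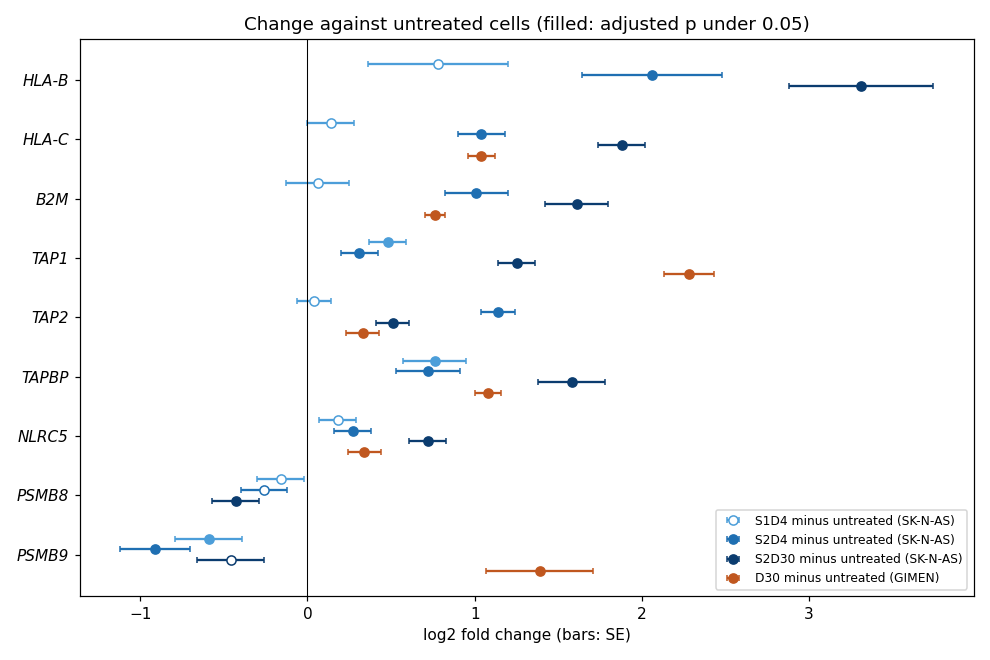
Log2 fold change against untreated cells of the same line (x axis) for each of the 9 genes (rows), with bars for the standard error; filled points have an adjusted p under 0.05. The heavy chains and B2M move to the right from S1D4 to S2D30, while PSMB8 and PSMB9 lie left of 0 in SK-N-AS and PSMB9 lies at 1.39 in GIMEN.

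Per kilobase of principal transcript (GENCODE v29), B2M was the most abundant of the 9 in every group. In untreated SK-N-AS it had 128 CPM per kb, followed by TAPBP (35.5), HLA-C (32.3) and PSMB8 (23.4). The lowest were HLA-B at 2.19 and NLRC5 at 1.75 CPM per kb. By S2D30, B2M had 401, HLA-C 122, TAPBP 109 and HLA-B 22.3 CPM per kb, so HLA-B now stood above PSMB8 (17.8) and PSMB9 (9.03). In untreated GIMEN, B2M had 150 CPM per kb, TAPBP 41.0 and HLA-C 19.1, while TAP1 was at 1.38 and PSMB9 at 1.10.

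**Figure D2:**
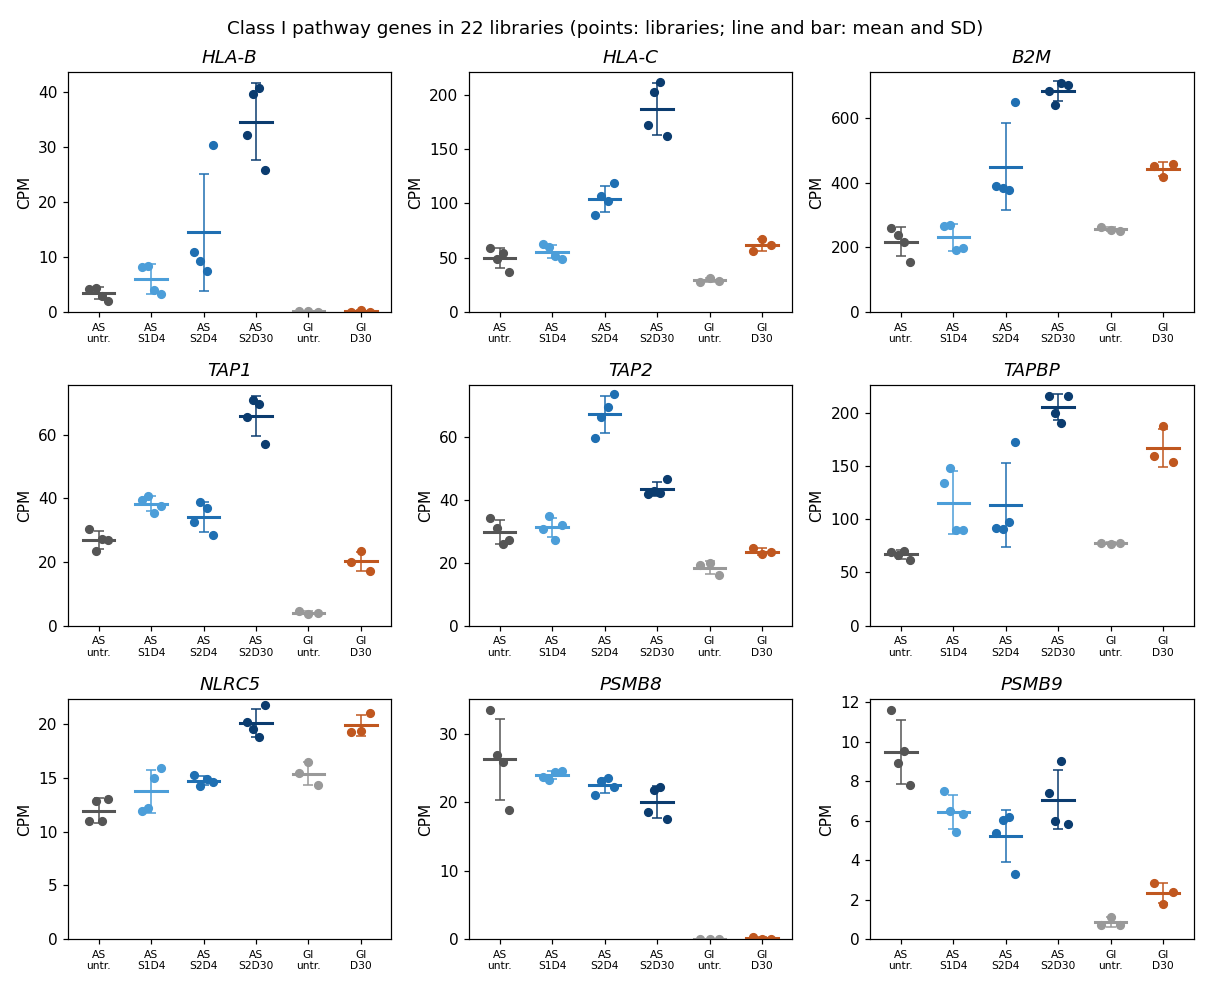
CPM of each of the 9 genes (y axes, each starting at 0) in the 4 SK-N-AS groups (AS) and the 2 GIMEN groups (GI), with points for libraries and a line and bar for the mean and SD. S2D30 holds the highest mean for HLA-B, HLA-C, B2M, TAP1, TAPBP and NLRC5, S2D4 for TAP2, and untreated SK-N-AS for PSMB8 and PSMB9.

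HLA-B, a classical heavy chain, was low in untreated SK-N-AS, on 61 to 170 counts per library, and rose most of the 9 genes by S2D30. Its 4 untreated SK-N-AS libraries had 4.20, 4.37, 2.91 and 2.08 CPM. S1D4 gave 8.12, 8.43, 4.01 and 3.28 CPM, S2D4 gave 10.9, 9.17, 7.48 and 30.3, and S2D30 gave 32.2, 39.5, 40.7 and 25.8. The S1D4 libraries overlapped the untreated ones, with replicates 1 and 2 above 3 and 4, while each S2D4 and S2D30 library was above all untreated ones. In edgeR the log2 change against untreated cells was 0.78 ± 0.42 (SE, adjusted p = 0.157) in S1D4, 2.06 ± 0.42 (adjusted p = 0.000438) in S2D4 and 3.31 ± 0.43 (adjusted p = 3.39e-06) in S2D30, the last a 9.89-fold rise. Without replicate 4 the S2D4 change was 1.40 (adjusted p = 0.000915). The step from S1D4 to S2D4 was 1.28 (adjusted p = 0.0139), and without that library it was 0.62 and no longer called (edgeR adjusted p = 0.0955); with the 2 groups fitted alone it was 1.27 (adjusted p = 0.0518). From S2D4 to S2D30 HLA-B rose by 1.24, or by 1.90 without that library. GIMEN had 1 to 5 HLA-B counts per library in both groups, so no fold was computed there.

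HLA-C, the other classical heavy chain of the set, started higher and rose less. Untreated SK-N-AS libraries had 58.6, 48.4, 54.0 and 37.15 CPM, and S1D4 libraries, at 62.3, 59.8, 51.9 and 49.05, overlapped them. S2D4 followed with 89.7, 107, 102.0 and 119 CPM, and S2D30 with 172, 203, 212 and 162, each group clear of the one before it. The log2 change was 0.14 ± 0.14 (not called) in S1D4, 1.04 ± 0.14 in S2D4 and 1.88 ± 0.14 in S2D30 (edgeR adjusted p = 4.18e-09, 3.68-fold). In GIMEN, HLA-C went from 27.9, 31.5 and 28.5 CPM to 56.0, 67.0 and 62.0 CPM with no overlap, a log2 rise of 1.04 ± 0.08 (edgeR adjusted p = 5.71e-07). In the reference transcripts, 14.2% of the 75-base words of HLA-B and 1.3% of those of HLA-C also occurred in another gene. How reads of the lines' own HLA alleles were counted was not tested.

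B2M, the light chain shared by all class I molecules, rose 2.01-fold by S2D4 and 3.06-fold by S2D30. The untreated SK-N-AS libraries had 261, 238.5, 217 and 155 CPM, and the S1D4 libraries 266, 270.0, 190.5 and 198. S2D4 gave 389, 384, 377 and 650 CPM, and S2D30 gave 683, 641.5, 709.5 and 703. Untreated and S1D4 libraries overlapped, and S1D4 replicates 1 and 2 were again above 3 and 4, whereas all stage 2 libraries were above both. The log2 change was 0.06 ± 0.19 in S1D4 (edgeR adjusted p = 0.838), 1.01 ± 0.19 in S2D4 (adjusted p = 0.000186) and 1.61 ± 0.19 in S2D30 (adjusted p = 1.01e-06). In S2D4 without replicate 4 it was 0.78. GIMEN libraries went from 264, 255 and 249.9 CPM to 453, 416.5 and 458 CPM, a rise of 0.76 ± 0.06 (edgeR adjusted p = 7.18e-07).

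B2M was compared with the 2 heavy chains of the set within each library. Other heavy chains that pair with B2M, such as HLA-E, are not in this sum, so it is no ratio of light to all heavy chain RNA. B2M counts over the sum of HLA-B and HLA-C counts averaged 4.10 in untreated SK-N-AS and 3.10 in S2D30, a log2 difference of -0.40 with no overlap of the libraries (exact two-sided permutation test, p = 0.0286, adjusted p = 0.0857 over 15 ratio tests). In GIMEN the ratio averaged 8.71 untreated and 7.17 in D30, with overlapping libraries. With 4 against 4 libraries 0.0286 is the smallest p this test can give, and with 3 against 3 it is 0.1. None of the 15 ratio tests had an adjusted p under 0.05, so these differences are given as measured.

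TAP1 and TAP2, which pair into the peptide transporter, followed different courses. TAP1 libraries had 30.3, 23.4, 27.1 and 26.8 CPM before treatment and 39.5, 40.7, 35.4 and 37.4 CPM in S1D4, with no overlap. S2D4 libraries had 32.6, 38.9, 36.95 and 28.3 CPM and overlapped both, and S2D30 libraries, at 65.5, 70.9, 69.7 and 57.1, were above all others. TAP1 rose by 0.48 ± 0.11 on the log2 scale in S1D4 (edgeR adjusted p = 0.00217) and by 1.25 ± 0.11 in S2D30 (adjusted p = 2.65e-08). Its S2D4 change, 0.31 (adjusted p = 0.0209), was not called with upper-quartile scaling (0.25, adjusted p = 0.0786), with the compared groups fitted alone (adjusted p = 0.0624), or without untreated replicate 2 or S2D4 replicate 2 or 3 (0.24 to 0.27). In GIMEN, TAP1 went from 4.59, 3.585 and 4.07 CPM to 20.1, 23.3 and 17.15 CPM. That was a log2 rise of 2.28 ± 0.15 (edgeR adjusted p = 1.08e-07, 4.85-fold).

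TAP2 peaked at S2D4 instead. Its libraries had 34.35, 31.1, 25.9 and 27.35 CPM untreated, 30.6, 34.9, 27.4 and 31.9 in S1D4, 59.75, 66.2, 69.4 and 73.6 in S2D4 and 41.9, 42.7, 42.2 and 46.7 in S2D30. The S2D4 libraries were above all others, and the S2D30 libraries lay between them and the first 2 groups. TAP2 rose by 1.14 ± 0.10 in S2D4 and by 0.51 ± 0.10 in S2D30 against untreated cells (edgeR adjusted p = 7.13e-08 and 0.000305), and fell by 0.63 from S2D4 to S2D30 (adjusted p = 7.44e-05). In GIMEN it went from 19.2, 19.9 and 16.05 to 24.7, 22.8 and 23.25 CPM. This rise of 0.33 (edgeR adjusted p = 0.0102) was 0.24 and not called without untreated replicate 3 (adjusted p = 0.0574). In GENCODE v29, 32.3% of TAP2 exon bases overlap the gene AL669918.1 on the same strand, and how its reads were divided is not given in the sources used here.

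Tapasin (TAPBP), which holds empty class I molecules next to the transporter, rose at each comparison with untreated cells. Untreated SK-N-AS libraries had 69.3, 66.75, 70.4 and 61.3 CPM. S1D4 split into 134 and 148 CPM (replicates 1 and 2) and 90.3 and 90.15 CPM (replicates 3 and 4). S2D4 gave 92.2, 91.2, 97.05 and 173 CPM, and S2D30 gave 215.5, 199.8, 191 and 216. All treated libraries were above all untreated ones. The log2 change was 0.76 ± 0.19 in S1D4 (edgeR adjusted p = 0.00491), 0.72 ± 0.19 in S2D4 (adjusted p = 0.00375) and 1.58 ± 0.20 in S2D30 (adjusted p = 1.83e-06). Without replicate 4 the S2D4 rise was 0.45 (edgeR adjusted p = 0.0108). GIMEN libraries went from 77.5, 76.4 and 78.1 CPM to 159.7, 188 and 154 CPM, a rise of 1.08 ± 0.08 (edgeR adjusted p = 1.93e-07).

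PSMB8 and PSMB9 replace the standard catalytic subunits PSMB5 and PSMB6 when immunoproteasomes form, and PSMB10 replaces PSMB7. PSMB8 had 33.4, 26.8, 25.9 and 18.9 CPM in untreated SK-N-AS, and every treated library lay within that range or below it, at 17.6 to 24.6 CPM. Its S2D30 change of -0.43 ± 0.14 was called (edgeR adjusted p = 0.0106), but without untreated replicate 1 it was -0.26 and was not (adjusted p = 0.0782). The changes in S1D4 (-0.16) and S2D4 (-0.26) were not called. Without untreated replicate 4 both were, at -0.29 and -0.39 (edgeR adjusted p = 0.0446 and 0.00586), and with upper-quartile scaling the S2D4 change was called at -0.33 (adjusted p = 0.0499). In GIMEN, PSMB8 had 0 counts in all 3 untreated libraries, which allows up to 0.147 to 0.17 CPM (3 counts), and 5, 0 and 1 counts in D30. In GENCODE v29, 20.6% of PSMB8 exon bases lie opposite exons of other genes, and the strand setting of the counting is not given in the sources used here.

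PSMB9 was lower in SK-N-AS after 4 days of either stage and higher in GIMEN after 30 days. Untreated SK-N-AS libraries had 11.6, 8.92, 9.54 and 7.815 CPM, S1D4 libraries 7.51, 6.50, 5.40 and 6.34, S2D4 libraries 5.355, 6.02, 6.17 and 3.305, and S2D30 libraries 7.41, 5.99, 9.02 and 5.82. The S1D4 and S2D4 libraries lay below all untreated ones, and S2D30 overlapped them. PSMB9 fell by 0.91 ± 0.21 in S2D4 (edgeR adjusted p = 0.00109; -0.73 without replicate 4). The S1D4 value of -0.59 (adjusted p = 0.0302) was not called without filtering low genes (adjusted p = 0.0508) or without any one of untreated replicate 1 or 3 or S1D4 replicate 2, 3 or 4 (adjusted p = 0.056 to 0.127). The S2D30 value of -0.46 missed the threshold (edgeR adjusted p = 0.0517), and it passed with a replicate block (0.0313), with the compared groups fitted alone (0.0466), or without untreated replicate 4 (0.0326) or S2D30 replicate 3 (0.0214). In GIMEN, PSMB9 rose from 0.722, 1.13 and 0.735 to 2.82, 1.78 and 2.38 CPM, by 1.39 ± 0.32 (edgeR adjusted p = 0.00228), on 13 to 48 counts per library.

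The immunoproteasome subunits were also set against the subunit each replaces. PSMB5, the standard subunit, fell from 200.3 to 96.2 CPM (log2 change of -1.10 in S2D30, edgeR adjusted p = 2.85e-08). The ratio of PSMB8 to PSMB5 counts averaged 0.129 untreated, 0.1505 in S1D4, 0.169 in S2D4 and 0.2075 in S2D30, and the S2D4 and S2D30 libraries were above all untreated ones (exact two-sided permutation tests, p = 0.0286 each, adjusted p = 0.0857). PSMB9 over PSMB6 averaged 0.1995 untreated and 0.127 in S2D4, without overlap, and 0.1765 in S2D30, with overlap. In GIMEN this ratio went from 0.00601 to 0.0222, a log2 difference of 1.89 without overlap (exact permutation test, p = 0.1, adjusted p = 0.188). PSMB10 over PSMB7 averaged 0.0825 untreated and 0.0518 in S2D30, without overlap (exact permutation test, p = 0.0286, adjusted p = 0.0857).

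**Figure D3:**
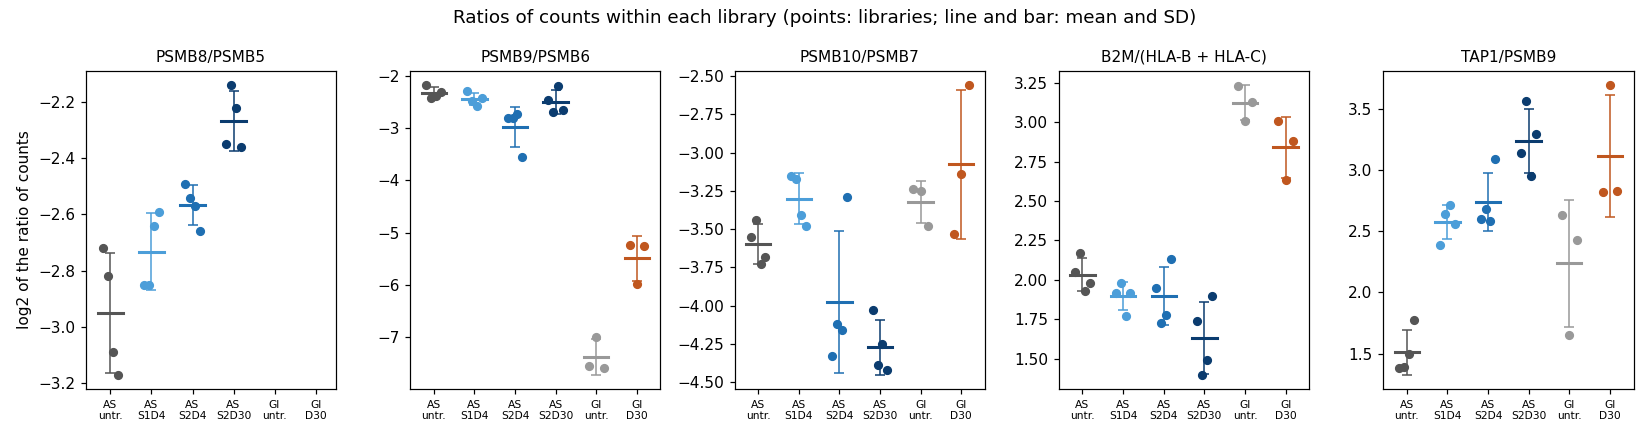
Log2 ratios of counts within each library (y axes, each with its own range) for immunoproteasome over standard subunits, B2M over HLA-B plus HLA-C, and TAP1 over PSMB9, by group (AS, SK-N-AS; GI, GIMEN). PSMB8/PSMB5 climbs from an untreated mean of -2.95 to -2.27 in S2D30, and is not drawn for GIMEN, where PSMB8 had at most 5 counts.

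TAP1 and PSMB9, the neighbours with the stretch shown above between them, parted in SK-N-AS. The log2 ratio of their counts averaged 1.51 ± 0.18 untreated, 2.57 ± 0.14 in S1D4, 2.74 ± 0.24 in S2D4 and 3.23 ± 0.26 in S2D30 (SD, n = 4 each), and every treated library was above every untreated one. In GIMEN, where both genes rose, it averaged 2.23 ± 0.52 untreated and 3.11 ± 0.50 in D30 (SD, n = 3 each). There, too, the D30 libraries (2.82 to 3.69) were above the untreated ones (1.65 to 2.63). This ratio was chosen after its values were seen and was not tested.

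NLRC5, the coactivator that binds class I promoters through the X-box factors, rose 1.64-fold by S2D30. Before treatment it had 10.96, 12.8, 10.98 and 13.1 CPM. S1D4 gave 11.9, 12.2, 14.98 and 15.9 CPM, S2D4 15.2, 14.3, 14.9 and 14.65, and S2D30 20.2, 19.6, 18.8 and 21.8. The S2D30 libraries were above all others, and those of S1D4 overlapped the untreated ones. The S2D30 rise was 0.72 ± 0.11 (log2, edgeR adjusted p = 2.01e-05). The S2D4 value of 0.27 (adjusted p = 0.0418) was not called under 8 alternatives, among them upper-quartile scaling (0.20, adjusted p = 0.123) and leaving out untreated replicate 3 (0.23, adjusted p = 0.106), untreated replicate 1 or S2D4 replicate 1, 2 or 3 (adjusted p = 0.0539 to 0.0848). In GIMEN, NLRC5 went from 15.4, 16.45 and 14.3 to 19.3, 19.4 and 21.0 CPM with no overlap, a rise of 0.34 ± 0.10 (edgeR adjusted p = 0.00721).

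Between stages, 4 of 9 genes were higher in S2D4 than in S1D4 (HLA-B, HLA-C, B2M and TAP2) and none lower, where 28.3% of all genes were called higher and 26.8% lower. HLA-C rose by 0.89, B2M by 0.95 and TAP2 by 1.10. From S2D4 to S2D30, 6 were higher and TAP2 was lower, against 24.4% and 26.9% of all genes. Those 6 were HLA-B, HLA-C (0.84), B2M (0.60), TAP1 (0.94), TAPBP (0.86) and NLRC5 (0.45). The values without S2D4 replicate 4 were 0.83 for B2M and 1.13 for TAPBP, and all 6 stayed called.

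The lines differed before treatment. Of the 9 genes, 6 were higher in untreated SK-N-AS than in untreated GIMEN and 2 were lower, where 38.6% of all genes were called higher and 35.3% lower. PSMB8 was at least 167-fold higher in SK-N-AS, taking 3 counts per GIMEN library as the floor, PSMB9 was 10.8-fold higher and TAP1 6.53-fold higher (log2 differences of 3.43 ± 0.26 and 2.71 ± 0.15). HLA-B averaged 3.39 CPM against 0.153 CPM on 1 to 4 counts per library, HLA-C was 1.68-fold and TAP2 1.60-fold higher. NLRC5 was lower by 0.38 in SK-N-AS (edgeR adjusted p = 0.00244), and at -0.23 with upper-quartile scaling it was not called (adjusted p = 0.0519). TAPBP, at -0.22 (adjusted p = 0.0325), lost its call under upper-quartile scaling (-0.07), DESeq2 size factors (-0.20), no filter (-0.22), the DESeq2 test (-0.20) and a fit of all 22 libraries (-0.21), and without 4 single libraries (untreated SK-N-AS 2 or 4, untreated GIMEN 1 or 3; -0.24 to -0.17). B2M, at -0.25, was not called (edgeR adjusted p = 0.108), and without untreated SK-N-AS replicate 1 it was (-0.36, adjusted p = 0.0169).

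The 30-day change itself was compared between the lines as an interaction, SK-N-AS minus GIMEN, for the 7 genes testable in both. It was larger in SK-N-AS for 4 (HLA-C by 0.82, B2M by 0.83, TAPBP by 0.48 and NLRC5 by 0.36) and smaller for 2, TAP1 (-1.04 ± 0.19, edgeR adjusted p = 0.000199) and PSMB9 (-1.88 ± 0.35, adjusted p = 0.000311). Of all genes, 24.5% were called higher and 25.2% lower. TAP2 (0.16, edgeR adjusted p = 0.428) was not called. The NLRC5 difference (adjusted p = 0.0449) was lost under 13 alternatives, including the replicate block (adjusted p = 0.0752) and upper-quartile scaling (0.31, adjusted p = 0.0819). It was also lost without any one of SK-N-AS untreated replicate 1 or 3, S2D30 replicate 1, 2 or 4, GIMEN untreated replicate 1 or 2, or D30 replicate 1 or 2 (0.31 to 0.37). The TAPBP difference (adjusted p = 0.00427) was lost when all 22 libraries were fitted (0.51, adjusted p = 0.128). In D30 GIMEN, TAP1 (20.2 ± 3.07 CPM, SD, n = 3) was still below untreated SK-N-AS (26.9 ± 2.81 CPM, SD, n = 4), with 23.3 CPM in the highest D30 library and 23.4 CPM in the lowest untreated SK-N-AS one.

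Other genes of the pathway were counted from fixed lists, in S2D30 and GIMEN D30 against untreated cells, where the median log2 change of all genes was -0.03 and 0.02. Of all genes, 33.8% were called higher and 36.5% lower in S2D30, and 35.5% and 36% in GIMEN D30. All 6 peptide loading and trimming genes were higher in S2D30, with a median log2 change of 1.26. TAPBPL, a tapasin relative, rose by 1.38 from 9.37 to 25.1 CPM, and CANX (calnexin, a chaperone of new heavy chains) by 1.28 from 337 to 840.5 CPM. In GIMEN 4 of the 6 were higher and 1 lower (median 0.52). Of 4 other immunoproteasome and activator subunits, 2 fell in S2D30 and none rose: PSMB10 by 0.91 and PSME1, part of the PA28 activator, by 0.90. GIMEN had 3 of these 4 lower. The 14 standard proteasome core genes had 11 lower and 1 higher in S2D30 (median -0.50), with PSMA2 falling by 1.17, PSMB5 by 1.10 and PSMA5 rising by 0.40, and 12 lower in GIMEN (median -0.49).

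Of 12 regulators of class I promoters, 5 were higher and 4 lower in S2D30 (median 0.05), shares near those of all genes (33.8% higher and 36.5% lower). IRF1, an interferon-induced activator of these promoters, had 6.99 to 13.4 CPM untreated, 14.15 to 32.1 in S1D4, 8.57 to 18.4 in S2D4 and 23.7 to 26.3 in S2D30. It rose by 1.04 in S1D4 and by 1.17 in S2D30 (edgeR adjusted p = 0.00684 and 0.00126), and its S2D4 change of 0.08 was not called. ATF1, a CRE-binding factor, rose by 0.98 in S2D30, IRF2 by 0.62, and the NF-kappaB subunits RELA and NFKB1 by 0.80 and 0.60. NFYB, a CCAAT-binding subunit, fell by 1.24. The X-box factor subunits RFXAP, RFXANK and RFX5 fell by 1.20, 0.85 and 0.46. NFYA, NFYC and CREB1 were not called. GIMEN had 4 higher and 6 lower, beside 35.5% and 36% of all genes, with RFXAP falling by 1.05 and IRF1 not called (0.13).

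Interferon receptor and signalling genes had 7 of 12 higher and 2 lower in S2D30 (median 0.50), beside 33.8% and 36.5% of all genes, and 6 higher and 2 lower in GIMEN, beside 35.5% and 36%. IFNGR1, a chain of the interferon gamma receptor, rose by 1.39 in each line, and STAT2 by 1.37 in SK-N-AS and 0.44 in GIMEN. SOCS1, a feedback inhibitor of this signalling, fell by 2.03 in S2D30 and fell by 3.26 in GIMEN D30, after a rise of 1.31 in S1D4 (edgeR adjusted p = 0.000996, 9.12e-08 and 0.0179). JAK1 fell by 0.26 in S2D30. The 7 interferon ligand genes on the list, IFNB1 and IFNG among them, had at most 2 counts in any of the 22 libraries. Other interferon genes were not on the list. Of 11 interferon-stimulated genes tested in S2D30, 2 were higher (IFI6 by 1.32 and IRF7 by 0.84) and 6 lower (median -0.47), beside the same shares of all genes, with IFI44L falling by 3.37 and OAS1 by 3.10. GIMEN had 3 higher and 4 lower of 11, and there OAS1 rose 8.01-fold (0.633 to 5.28 CPM) while IFI44L fell by 1.19.

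Among other class I and class I-like heavy chains, 4 of 6 tested were higher in S2D30 and none lower (median 1.17), beside 33.8% and 36.5% of all genes. HLA-E, a ligand of an inhibitory natural killer receptor, rose by 2.94 ± 0.21 from 25.0 ± 1.21 to 197 ± 6.93 CPM (SD, n = 4 each; edgeR adjusted p = 2.54e-09), and HLA-F rose by 1.59 from 0.46 to 1.44 CPM. GIMEN had 4 of 5 higher and none lower, beside 35.5% and 36% of all genes. HLA-E rose there by 1.47 from 0.621 to 1.78 CPM, on 8 to 18 counts per library untreated and 17 to 36 in D30. Of 7 class II genes tested in S2D30, 2 were higher (HLA-DPB1 by 1.11 and HLA-DQA1 by 0.59) and HLA-DPA1 was lower by 2.70. Their median was -0.04, and the S2D30 shares of all genes are those above. The 11 genes on the list summed to 16.9 to 25.4 CPM untreated and 24.3 to 30.6 CPM in S2D30. HLA-DQA1 made up most of both sums, with means of 14.5 and 22.3 CPM. Counts per library were low for HLA-DPA1 (17 to 34 untreated, 1 to 5 in S2D30) and HLA-DPB1 (7 to 19 and 14 to 24). The summed leukocyte markers were lower in S2D30 than in untreated cells, as given above, and their part in these values was not tested.

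**Figure D4:**
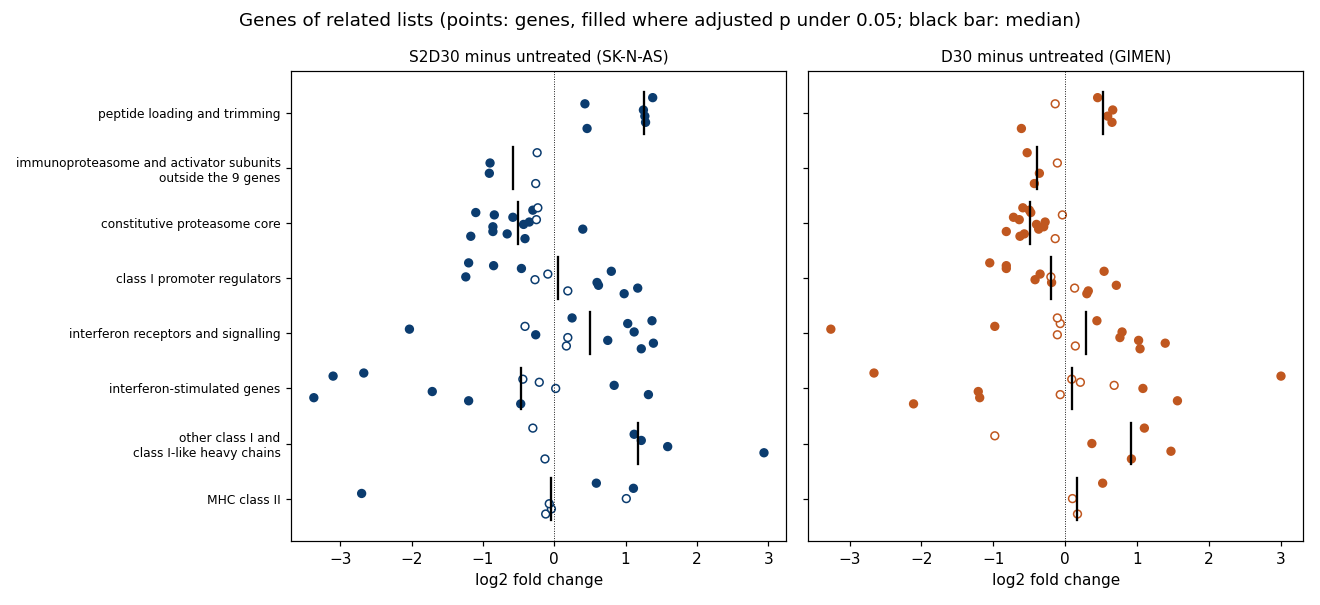
Log2 fold change (x axes) of each tested gene of the related lists (rows) in S2D30 and in GIMEN D30 against untreated cells; filled points have an adjusted p under 0.05 and black bars are medians. Peptide loading genes have a median of 1.26 in S2D30 and the standard proteasome core one of -0.50, with interferon-stimulated genes spread from -3.37 to 1.32.

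Across the 16 SK-N-AS libraries, log2 CPM of HLA-B, HLA-C and B2M correlated at r = 0.95 to 0.97 with each other, TAPBP at 0.92 with HLA-B, TAP1 at 0.20 with TAP2 and at -0.05 with PSMB9. These libraries fall into 4 treatment groups, so r is a description of the shared course. Among 10107 other genes with a mean of at least 10 CPM, those most like HLA-B were ZC3H12A (r = 0.974), RNASEK and TBC1D10A, and those most like B2M were LAMP1 (0.991), UXS1 and CYSTM1. TAP1 was followed most closely by LCP1 (0.972), PTGES and C6orf1, and NLRC5 by ZBTB25 (0.966), SMCR8 and ZNF557. Over the 6 GIMEN libraries, in 2 groups, LAMP1 correlated at 0.852 with B2M and LCP1 at 0.933 with TAP1, while PTGES correlated at -0.783 with TAP1.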

How the data were processed

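Total RNA of 22 samples was sequenced (paired-end, HiSeq X, per the labels), and the authors deposited 1 table of raw counts per gene symbol. That the deposited values are counts was checked on the values (whole numbers with unequal library totals). Aligner, genome build, annotation and strand setting are not given in the sources used here. Totals of 16456484 to 37506800 set the precision, and floors (3 counts) cover counting error only.

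Counts were tested in R 4.3.3 with edgeR 4.0.16: filterByExpr (minimum count 10, minimum total 15), TMM scaling, quasi-likelihood F-tests (glmQLFit, glmQLFTest) and Benjamini-Hochberg adjustment across every gene in the fit (threshold 0.05). The 16 SK-N-AS libraries were fitted together (15810 genes), as were the 6 GIMEN libraries (13517 genes) and the 14 untreated and 30-day libraries for the line comparisons (16246 genes). Standard errors are the log2 fold change divided by the square root of F. Printed CPM were scaled over all 22 libraries, so their ratios differ slightly from fitted folds. Ratios added 0.5 to each count and were compared by exact permutation tests. The fits were also run on simulated counts with the same spread for every gene and comparison. That simulation held no outlying library or paired replicates, so it cannot show how the fits handle those. Alternatives were other scalings, filters, DESeq2 1.42.0, a replicate block, other sets of libraries, a fold threshold and leaving out each library.

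The genes and lists were chosen with earlier results of these data known. All 9 genes are named. From each related list the 2 largest rises and 2 largest falls called in S2D30 are named, with PSMB6 and PSMB7 used in ratios. The regulators of class I promoters are all named. Like genes are the 3 highest Pearson r (log2 CPM, prior count 2) for 1 gene per role. Tests adjusted over a list were not made. The GENCODE v29 annotation (GRCh38) served for exon overlaps and lengths only. Some genes of the fixed lists are not reported here.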

Additional observations from a re-analysis of the deposited data

Results flagged for a closer look

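Within groups of 4 libraries, 4 of 36 sets of values had a single library far from the rest by Dixon's test. Chance gives about 1 in 20 for independent sets. The sets here share libraries and are not independent, so the count cannot be judged against that rate. In S2D4 these were HLA-B at 30.3 CPM, B2M at 650 CPM and TAPBP at 173 CPM, all in replicate 4. In S2D30 it was TAP2 at 46.7 CPM in replicate 4, against 41.9 to 42.7 CPM in the others.

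The 30-day change differed between the lines in edgeR's interaction test for 6 genes. It was larger in SK-N-AS for HLA-C (0.82 on the log2 scale), B2M (0.83), TAPBP (0.48) and NLRC5 (0.36). It was smaller there for TAP1 (-1.04) and PSMB9 (-1.88), of which PSMB9 rose in GIMEN and had a negative, uncalled change in SK-N-AS. Dose, medium and staging differed between the lines and cannot be told apart from the line.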

How the results depend on the processing

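Of the fold changes of the 9 genes, 518 kept their direction and side of the threshold when 1 library was left out, 29 lost the call, 5 gained it and 11 changed sign. Under the other alternatives these counts were 438, 18, 3 and 1. The values that changed sign were all uncalled. With 1 library left out, these ranged from -0.07 to 0.18 for B2M, -0.01 to 0.15 for TAP2 and -0.29 to 0.01 for PSMB8 in S1D4, and from -0.31 to 0.10 for TAPBP from S1D4 to S2D4. NLRC5 from S1D4 to S2D4 was at 0.00 with upper-quartile scaling. Outside these counts, the PSMB10/PSMB7 ratio difference in GIMEN ranged from -0.01 to 0.47 with 1 library left out. With an absolute log2 change of at least 1 also required, the genes higher and lower numbered 0 and 0 in S1D4, 4 and 0 in S2D4, and 5 and 0 in S2D30. They numbered 2 higher from S1D4 to S2D4, 1 higher and 0 lower from S2D4 to S2D30, 4 higher in GIMEN, 0 higher for the line difference of the 30-day change, and 0 lower for the untreated lines. Genes lower numbered 0 in S1D4 with no filter, 2 in S2D4 with upper-quartile scaling, and 2 in S2D30 with the compared groups alone. Genes with a larger 30-day change in SK-N-AS numbered 2 in a fit of all 22 libraries. For the untreated lines, whose alternatives were chosen after the data were seen, 1 gene was lower with DESeq2 size factors, no filter, the DESeq2 test or all 22 libraries, and 0 with upper-quartile scaling, which moved the median of all genes from 0.05 to 0.20. With 1 library left out, the counts ranged from 0 to 2 lower in S1D4, 5 to 7 higher and 1 to 2 lower in S2D4, 0 to 2 lower in S2D30, 3 to 4 higher from S1D4 to S2D4, 6 to 7 in GIMEN, 3 to 4 for the larger 30-day change, and 1 to 3 lower for the untreated lines. Requiring the fold also cut the genes called higher and lower among all genes: from 2786 and 3546 to 953 and 989 in S1D4, from 4879 and 5097 to 2096 and 2481 in S2D4, from 5336 and 5771 to 2807 and 3038 in S2D30, from 4470 and 4242 to 1406 and 2019 from S1D4 to S2D4, and from 3863 and 4248 to 1603 and 1506 from S2D4 to S2D30. In GIMEN they went from 4792 and 4861 to 1599 and 1738, for the 30-day difference from 3977 and 4092 to 1970 and 2265, and for the untreated lines from 6271 and 5738 to 3845 and 3008. The causes of the changes other than this one were not tested.

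With a replicate block, 2 genes were lower in S2D30, where PSMB9 gained its call (-0.46, adjusted p = 0.0313), and the NLRC5 difference of the 30-day change lost its own (0.36, adjusted p = 0.0752). No other call on the 9 genes changed with it. Same-numbered libraries of compared groups correlated at -0.101 to 0.293 in their deviations from the group means, so the numbers were not taken to pair the libraries, and not every library correlated best with its own number. No block could be fitted for the untreated lines, whose replicate numbers lie within the lines. HLA-B and PSMB8 in GIMEN are limited by depth.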
